A study of Mus musculus with 5 samples.

Results

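The neutrophil granule and maturity genes described here are Lcn2, Ltf, Camp, Ngp, Wfdc21, Mmp8, Mmp9, Retnlg, Stfa2l1 and Il1r2, 10 of the 33696 genes listed in the deposited count matrices. They were chosen by symbol, as genes known from neutrophils and with earlier results of these data known, and all 10 were present in each matrix. Single-cell RNA sequencing was run on peripheral blood mononuclear cells of C57BL/6N mice, from blood drawn into EDTA, separated on Ficoll, cleared of red cells by lysis, frozen and thawed. High-fat feeding (HFD) while blocking endothelial nitric oxide synthase with L-NAME over 15 weeks served to model HFpEF, heart failure in which the ejection fraction is preserved. In 1 library these mice also received NO2-OA, a nitrated oleic acid, for the last 4 weeks, and it is called the NO2-OA library. The regimen without NO2-OA gave 2 libraries, HFD + L-NAME 1 and 2, and mice on regular chow gave 2 libraries, chow 1 and chow 2. Age and sex are not given in the labels, and nothing there ties a library to 1 animal. The p-values therefore measure only the spread between these libraries, which may be technical.

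Neutrophils fill their granules in sequence while they mature in the bone marrow. Primary granule proteins such as myeloperoxidase are made first, specific granule proteins next and gelatinase granule proteins last, and each set of transcripts is switched off again as the cell moves on. Transcripts of specific granule proteins therefore mark younger cells, while a circulating segmented neutrophil carries the finished proteins and little of that RNA. Ficoll separation is used to leave granulocytes in the pellet, so neutrophils found here are those that stayed with the mononuclear fraction.

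Ltf, Camp and Ngp, which varied together from cell to cell, and Lcn2, which was less tied to those cells, are the genes on which the results turn, and the 250 bases before their annotated starts are shown for that reason. The sequences are from RefSeq on GRCm38.p6, each written in the direction of its gene, with matches to TTGCNNAA or its reverse TTNNGCAA in capitals. This is a pattern of the kind bound by C/EBP factors, transcription factors of granulocyte development, and it was chosen with the sequences in view. The deposited counts were made on another build, mm39, and no coordinates were converted.
Ltf (chr9:111019042-111019291, plus strand): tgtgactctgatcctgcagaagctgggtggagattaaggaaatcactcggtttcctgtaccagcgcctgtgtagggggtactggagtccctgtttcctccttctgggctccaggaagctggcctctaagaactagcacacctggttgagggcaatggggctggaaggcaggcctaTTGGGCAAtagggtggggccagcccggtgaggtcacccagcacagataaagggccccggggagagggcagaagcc
Camp (chr9:109849457-109849706, minus strand): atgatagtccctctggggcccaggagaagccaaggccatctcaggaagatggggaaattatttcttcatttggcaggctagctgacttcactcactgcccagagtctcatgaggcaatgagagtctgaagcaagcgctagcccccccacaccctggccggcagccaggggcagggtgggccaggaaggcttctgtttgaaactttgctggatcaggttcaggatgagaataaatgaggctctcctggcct
Ngp (chr9:110419558-110419807, plus strand): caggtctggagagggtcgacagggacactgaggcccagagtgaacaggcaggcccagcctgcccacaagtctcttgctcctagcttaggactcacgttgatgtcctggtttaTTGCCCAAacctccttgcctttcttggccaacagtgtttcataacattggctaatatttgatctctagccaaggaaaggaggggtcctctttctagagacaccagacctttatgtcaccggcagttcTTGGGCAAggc
Lcn2 (chr2:32387740-32387989, minus strand): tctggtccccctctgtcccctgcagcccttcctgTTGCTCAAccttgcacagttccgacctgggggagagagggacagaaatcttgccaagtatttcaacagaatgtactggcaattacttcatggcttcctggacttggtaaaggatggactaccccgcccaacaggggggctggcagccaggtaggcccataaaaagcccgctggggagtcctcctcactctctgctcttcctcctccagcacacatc
Ltf, Camp and Ngp all lie on chromosome 9. The match began 75 bases before the start in Ltf and 216 bases before it in Lcn2, and Ngp held matches at 138 and 11 bases. No match was present in these letters before Camp. Of the 8 genes of the group with an entry in the promoter table, 5 held a match, against 3142 of 32851 promoters of the same length (9.56%). Mmp9 and Wfdc21 were not in that table.

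After filtering, 12707 cells were kept from the NO2-OA library, 10746 and 7184 from HFD + L-NAME 1 and 2, and 14777 and 9775 from chow 1 and 2. Library totals ran from 71216133 to 122022000 unique molecular identifiers (UMIs, counted RNA molecules), and median depth per barcode from 5741 to 7043.5 UMIs. Of 66255 distinct barcode sequences, 437 occurred in more than 1 library. Cells were clustered with the 10 genes left out, and 1 cluster of 1625 cells was called neutrophil-like by the mean score of 12 neutrophil markers. These markers, such as S100a8, S100a9, Csf3r and Cxcr2, were all detected in the cluster. It held 483 cells of the NO2-OA library, 294 and 532 cells of HFD + L-NAME 1 and 2, and 307 and 9 cells of chow 1 and 2. As shares of kept cells these are 3.80% in the NO2-OA library (exact binomial 95% interval 3.48 to 4.15%), 2.74% (2.44 to 3.06%) in HFD + L-NAME 1, 7.41% (6.81 to 8.04%) in HFD + L-NAME 2, 2.08% (1.85 to 2.32%) in chow 1 and 0.0921% (0.0421 to 0.175%) in chow 2. The groups averaged 5.07 ± 3.30% in HFD + L-NAME and 1.09 ± 1.40% in chow (SD, n = 2 each). Their log2 ratio was 2.22, with an exact two-sided permutation p of 0.333, the smallest that 2 against 2 libraries can give, and it was 1.29 without chow 2 and 5.78 without chow 1. All intervals cover counting error only. Chow 2 stands apart with 9 neutrophil-like cells and 56076 UMIs in them, against 1289734 in chow 1 and between 1506928 and 3683233 in the libraries of treated mice. The fold changes in these cells are therefore also given without it. A fit without chow 2 holds 1 chow library, which is assumed to vary like the other group. Only the fold changes of that fit are therefore read.

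Summed, the 10 genes were most abundant per UMI in the neutrophil-like cells of every library. They made up 363 of every 10000 UMIs of neutrophil-like cells in the NO2-OA library, 191 and 190.2 in HFD + L-NAME 1 and 2, and 101.5 and 86.5 in chow 1 and 2. In all other classes combined they made up 0.618 per 10000 UMIs in the NO2-OA library, 0.441 and 0.302 in HFD + L-NAME 1 and 2, and 0.243 and 0.326 in chow 1 and 2. Neutrophil-like cells held 95.0% of the genes' UMIs in the NO2-OA library, 90.0% and 97.6% in HFD + L-NAME 1 and 2, and 85.4% in chow 1. In chow 2, with 9 such cells, they held 16.7%, and the rest lay in other classes.

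**Figure D1:**
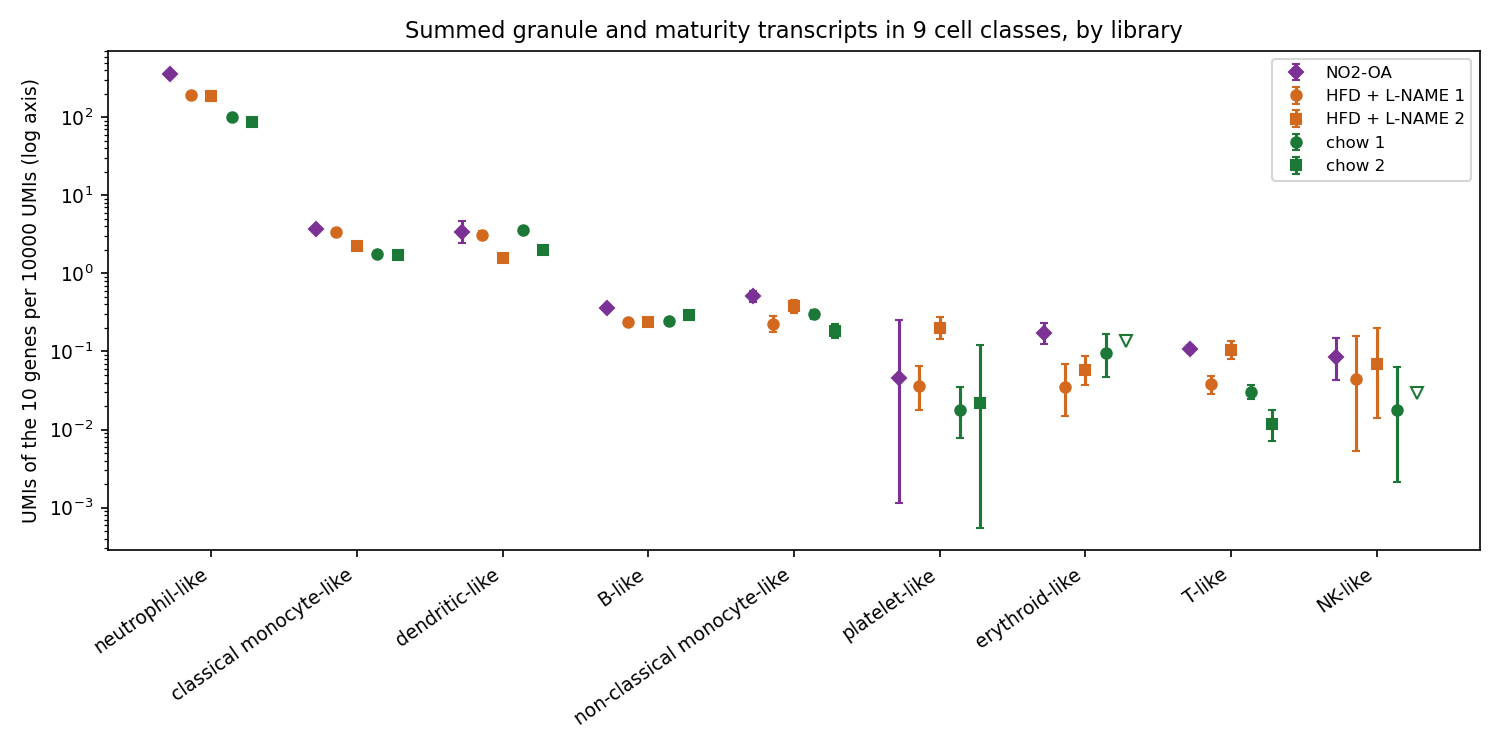
Summed UMIs of the 10 genes per 10000 UMIs (log axis) in 9 cell classes, with 1 point for each library in the order NO2-OA, HFD + L-NAME 1 and 2, chow 1 and 2, and bars for the exact Poisson 95% interval. An open triangle is the limit that 3 counts set where no UMI was seen. Neutrophil-like cells lie between 86.5 and 363 per 10000, classical monocyte-like and dendritic-like cells between 1.57 and 3.75, and T-like cells between 0.0116 and 0.107.

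In neutrophil-like cells, the specific granule genes Lcn2, Ltf, Camp and Ngp and the gene Wfdc21 had higher levels in the NO2-OA library and in both HFD + L-NAME libraries than in both chow libraries. Mmp8, Mmp9 and Retnlg had the same order, with smaller log2 fold changes. The share of all genes tested that had this order was not counted. None of the 10 genes passed edgeR's quasi-likelihood test between HFD + L-NAME and chow with Benjamini-Hochberg adjustment over all 7160 genes tested. That test called 4 genes (0.0559% of those tested), and 5 of the 10 genes had an unadjusted p under 0.05, as did 282 of all genes. DESeq2 called 7 genes (0.0978%), with Lcn2 (adjusted p = 0.00485) and Ltf (adjusted p = 0.0269) among them. All 10 fold changes were above 0, with a median of 1.60 on the log2 scale, against 52.6% above 0 and a median of 0.03 over all genes tested. Without chow 2, edgeR called 16 of 8040 genes (0.199%), Lcn2, Camp and Ngp among them, and the 10 genes, again all above 0, had a median of 1.24, against 51.7% above 0 and a median of 0.03 over all genes.

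Lcn2 encodes lipocalin-2, a specific granule protein that withholds iron from bacteria by binding their siderophores. Its level, in UMIs per 1000000 UMIs of neutrophil-like cells (CPM), was 4095 in the NO2-OA library, 2134 and 1743 in HFD + L-NAME 1 and 2, and 378 and 321 in chow 1 and 2. The HFD + L-NAME libraries lay above both chow libraries. The Poisson interval of chow 2, from 190.2 to 507 CPM, covers the counting of UMIs only, and 15 of the 18 Lcn2 UMIs there came from 1 of 9 cells. The log2 fold change of Lcn2 was 2.71 ± 0.49 (SE, edgeR, adjusted p = 0.294), and the log2 ratio was 2.50 for HFD + L-NAME 1 over chow 1 and 2.44 for HFD + L-NAME 2 over chow 2. Without chow 2 the fold change was 2.48 on the log2 scale. Lcn2 was detected in 81.6% of neutrophil-like cells of the NO2-OA library, in 80.6% and 61.8% in HFD + L-NAME 1 and 2, and in 34.5% and 33.3% in chow 1 and 2. After thinning every cell to 500 UMIs, with none left out, the shares were 53.6% in the NO2-OA library, 45.9% and 23.3% in HFD + L-NAME 1 and 2, and 11.7% and 11.1% in chow 1 and 2, the last being 1 of 9 cells. T-like cells, which should lack the gene, had a UMI of it in 0.788% of cells in the NO2-OA library, 0.217% and 0.470% in HFD + L-NAME 1 and 2, and 0.0776% and 0% in chow 1 and 2. Their median depth lay between 5577 and 8737.5 UMIs, against 4018 to 6186 in neutrophil-like cells.

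Ltf encodes lactoferrin, the iron-binding protein of specific granules. It stood at 1930 CPM in the NO2-OA library, 349 and 844 in HFD + L-NAME 1 and 2, and 98.5 and 17.8 in chow 1 and 2, the last from 1 UMI. Camp encodes cathelicidin, the precursor of an antimicrobial peptide, and had 4695 CPM in the NO2-OA library, 1291 and 2137 in HFD + L-NAME 1 and 2, and 249 in chow 1, with no UMI in chow 2. Ngp encodes neutrophilic granule protein, a relative of the cathelicidins, and had 5965 CPM in the NO2-OA library, 1309 and 2337 in HFD + L-NAME 1 and 2, and 307 in chow 1, again with no UMI in chow 2. In all 3 genes the libraries of treated mice lay above both chow libraries. A count of 0 among the 56076 UMIs of chow 2 was given a limit of 53.5 CPM (3 counts). HFD + L-NAME 2 stood at 39.9 times this limit in Camp and 43.7 times in Ngp. The limit covers the counting of UMIs only, and chow 2 rests on 9 cells. In HFD + L-NAME 2, 5.45% of neutrophil-like cells had a UMI of Camp and 7.9% had 1 of Ngp, while 0 of 9 cells allows up to 33.6%. These multiples are therefore no lower bound on a difference between the libraries.

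The edgeR log2 fold changes were 3.11 ± 0.68 for Ltf, 3.57 ± 0.90 for Camp and 3.39 ± 0.93 for Ngp, all with an adjusted p of 0.799. Those of Camp and Ngp depend on the prior count that edgeR adds to the 0 of chow 2. For HFD + L-NAME 1 over chow 1 the log2 ratios were 1.83 for Ltf, 2.38 for Camp and 2.09 for Ngp. Without chow 2, Camp had an edgeR log2 fold change of 2.89, Ngp of 2.68 and Ltf of 2.70.

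Wfdc21, a small protein with a WAP domain, followed Lcn2. It stood at 2910 CPM in the NO2-OA library, 1749 and 1204 in HFD + L-NAME 1 and 2, and 454 and 249.7 in chow 1 and 2, with no overlap between HFD + L-NAME and chow. The log2 fold change was 2.24 ± 0.55 (edgeR adjusted p = 0.799), and the log2 ratio was 1.94 for HFD + L-NAME 1 over chow 1 and 2.27 for HFD + L-NAME 2 over chow 2. Without chow 2 the log2 fold change was 1.83. Across single neutrophil-like cells, Wfdc21 correlated more with Lcn2 (Pearson r of log levels per 10000 UMIs 0.639) than with Ltf, Camp or Ngp (0.381 to 0.503). These are descriptions over 1625 cells that share 5 libraries.

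**Figure D2:**
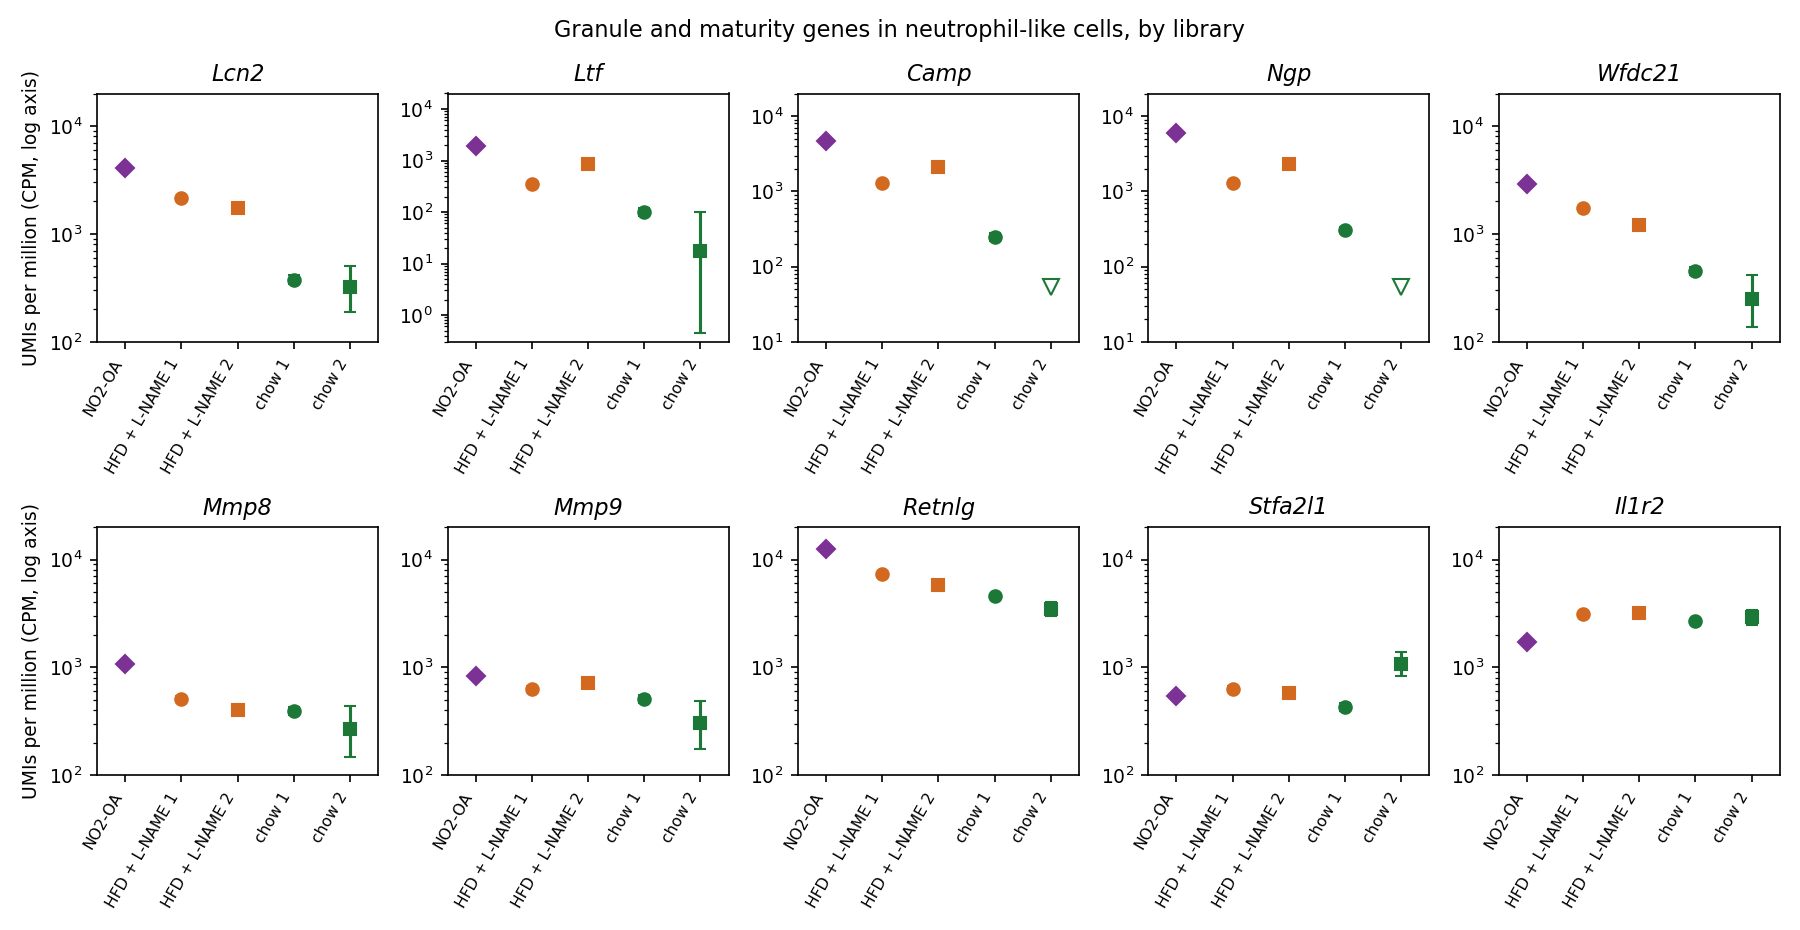
Level of each of the 10 genes in neutrophil-like cells (CPM, log axis), with 1 point for each library and the exact Poisson 95% interval as a bar. Open triangles mark the limit that 3 counts set where no UMI was seen, for Camp and Ngp in chow 2. Lcn2, Ltf, Camp, Ngp, Wfdc21, Mmp8, Mmp9 and Retnlg are lowest in both chow libraries, Mmp8 by a narrow margin, while Il1r2 is lowest in the NO2-OA library at 1707 CPM.

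The granule proteases differed less. Mmp8, the neutrophil collagenase, had 1084 CPM in the NO2-OA library, 510.3 and 403 in HFD + L-NAME 1 and 2, and 398 and 267 in chow 1 and 2. Mmp9, the gelatinase that gives gelatinase granules their name, had 838 CPM in the NO2-OA library, 634 and 715 in HFD + L-NAME 1 and 2, and 510.2 and 303 in chow 1 and 2. Both HFD + L-NAME libraries lay above both chow libraries in each gene, in Mmp8 by a narrow margin. The log2 fold changes were 0.65 ± 0.48 for Mmp8 and 0.91 ± 0.50 for Mmp9 (edgeR, both adjusted p = 1), and without chow 2 they were 0.32 and 0.52.

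Retnlg, Il1r2 and Stfa2l1 showed no common order. Both HFD + L-NAME libraries lay above both chow libraries in Retnlg and Il1r2, but not in Stfa2l1. The NO2-OA library was highest in Retnlg and lowest in Il1r2. Retnlg, a resistin-like secreted protein and the most abundant of the 10, had 12540 CPM in the NO2-OA library, 7345 and 5844 in HFD + L-NAME 1 and 2, and 4610 and 3495 in chow 1 and 2. Its log2 fold change was 0.97 ± 0.46 (edgeR adjusted p = 1), and 0.64 without chow 2. Il1r2, the decoy receptor that binds interleukin-1 without signalling, had 1707 CPM in the NO2-OA library, 3108 and 3209 in HFD + L-NAME 1 and 2, and 2714 and 2907 in chow 1 and 2, a log2 fold change of 0.46 ± 0.43 (edgeR adjusted p = 1), and of 0.34 without chow 2. It was detected in at least 98.0% of neutrophil-like cells of every library. Stfa2l1, a stefin A gene whose product inhibits cysteine proteases, had 547 CPM in the NO2-OA library, 635 and 584 in HFD + L-NAME 1 and 2, and 429 and 1088 in chow 1 and 2. The chow libraries lay on either side of the others in Stfa2l1, the log2 fold change was 0.10 ± 0.48 (edgeR adjusted p = 1), and it was 0.63 without chow 2 and -0.23 without chow 1. Stefin A genes are near-identical copies, so reads may be split between Stfa2l1 and its neighbours, and its values are uncertain.

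**Figure D3:**
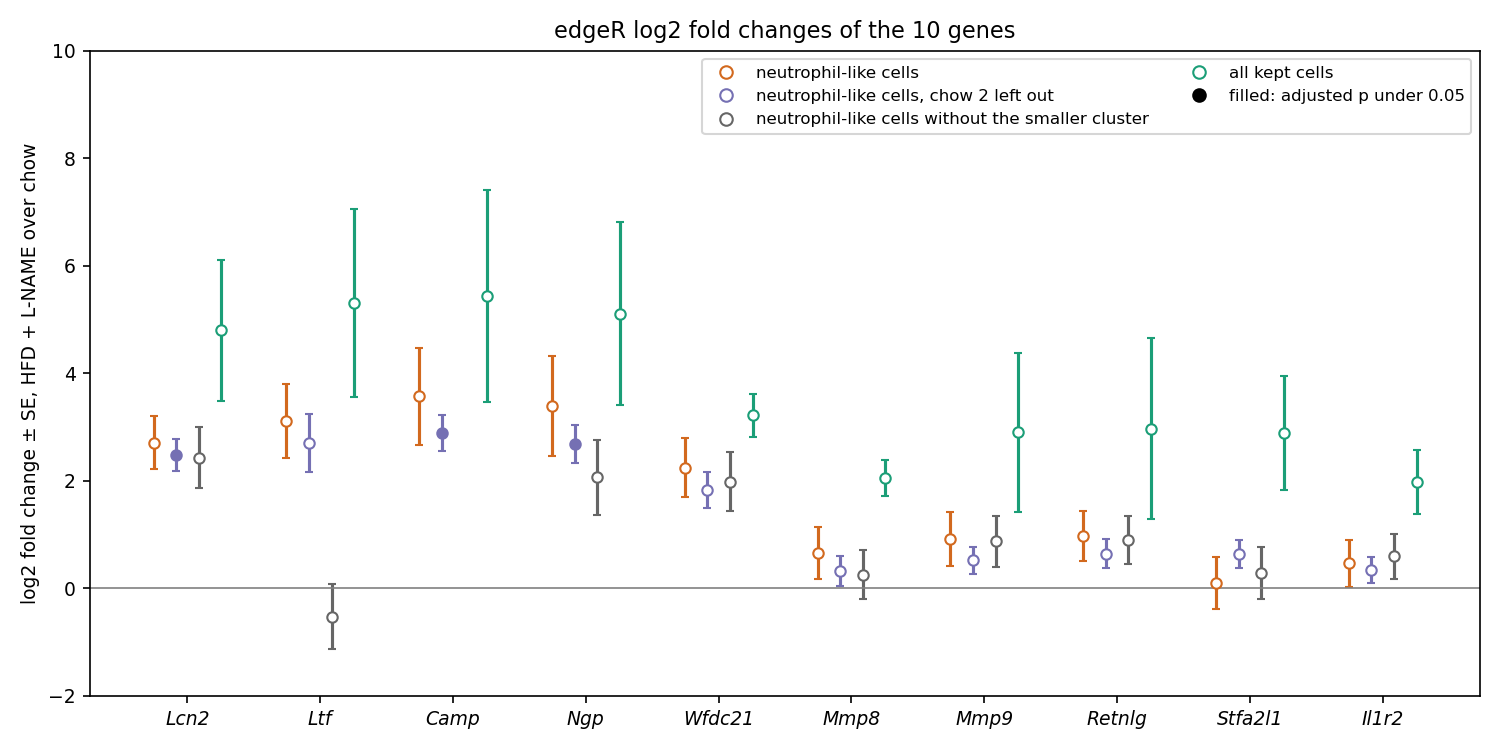
edgeR log2 fold change of each gene, HFD + L-NAME over chow, with its SE, in neutrophil-like cells, in these cells without chow 2, in these cells without the smaller of their 2 clusters, and in all kept cells. Filled points, all in the fit without chow 2, had an adjusted p under 0.05. That fit holds a lone chow library, assumed to vary like the other group, so filling is not read as a call. Ltf stood at 3.11 in neutrophil-like cells and at -0.53 without the smaller cluster.

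The NO2-OA library has no replicate, so its values were compared without a test. Set against the mean of the HFD + L-NAME libraries in neutrophil-like cells, its level was 3.23-fold higher in Ltf, 2.74-fold in Camp, 3.27-fold in Ngp, 2.11-fold in Lcn2, 1.97-fold in Wfdc21, 2.37-fold in Mmp8 and 1.90-fold in Retnlg. Mmp9 stood at 1.24 times that mean, Stfa2l1 at 0.897 times and Il1r2 at 0.540 times. Lcn2, Ltf, Camp and Ngp together made up 46.0% of the UMIs of the 10 genes in the NO2-OA library, 26.7% and 37.1% in HFD + L-NAME 1 and 2, and 10.2% and 3.92% in chow 1 and 2. Il1r2 made up 4.70% in the NO2-OA library, 16.3% and 16.9% in HFD + L-NAME 1 and 2, and 26.7% and 33.6% in chow 1 and 2. Across the groups the specific granule share and the Il1r2 share ran in opposite orders, and both are parts of the same total.

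Markers of red cells moved with these results. The 4 genes that edgeR called in neutrophil-like cells were haemoglobin genes, with log2 fold changes of 6.24 ± 0.62 for Hbb-bs (adjusted p = 0.013), 5.82 ± 0.66 for Hbb-bt (0.014), 5.42 ± 0.61 for Hba-a2 (0.014) and 4.01 ± 0.54 for Hba-a1 (0.0461). Without chow 2 the log2 fold changes of these 4 genes ran from 3.84 for Hba-a1 to 6.02 for Hbb-bs. All 7 erythroid markers were detected in neutrophil-like cells of 4 libraries and 5 of 7 in chow 2, where Hbb-bt and Alas2 were at 0. Their summed level was 16940 CPM in the NO2-OA library, 4387 and 5585 in HFD + L-NAME 1 and 2, and 181 and 178 in chow 1 and 2. In B-like cells it was 693 CPM in the NO2-OA library, 307 and 489 in HFD + L-NAME 1 and 2, and 124 and 67.9 in chow 1 and 2, the same side for each group. Not every class had this order. Dendritic-like cells had 4023 and 294 CPM in HFD + L-NAME 1 and 2, against 96.1 and 2409 in chow 1 and 2. Unnamed cells had 7869 and 20080 in HFD + L-NAME 1 and 2, against 12330 and 3488 in chow 1 and 2. The part of red cell RNA in the levels of the granule genes was not tested. The class's own 12 markers also differed, with a summed level of 151800 CPM in the NO2-OA library, 126900 and 104300 in HFD + L-NAME 1 and 2, and 59610 and 54480 in chow 1 and 2. In the 9 cells of chow 2 the 8 B markers summed to 1480 CPM, against 83.3 to 457 in the other libraries.

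The 3 genes Ltf, Camp and Ngp came from few cells. The tenth of the neutrophil-like cells with most UMIs of a gene, 163 cells, held 99.9% of the UMIs of Ltf, 100% of those of Camp and 99.5% of those of Ngp, against 68.4% for Lcn2, 57.8% for Wfdc21 and 31.4% for Il1r2. The median neutrophil-like cell had no UMI of Ltf, Camp or Ngp, 2 of Lcn2, 3 of Wfdc21 and 11 of Il1r2. All 3 genes were detected together in 72 cells (14.9%) of the NO2-OA library, 10 (3.40%) and 23 (4.32%) of HFD + L-NAME 1 and 2, and 4 (1.30%) and 0 of chow 1 and 2. Across cells the Pearson r was 0.942 between Ltf and Camp, 0.910 between Camp and Ngp and 0.872 between Ltf and Ngp, whereas Il1r2 had values between -0.434 and -0.395 with these genes.

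At a finer resolution, still with the 10 genes left out, the neutrophil-like cells split into a cluster of 1508 cells and a cluster of 117. The smaller cluster held 76 cells of the NO2-OA library, 13 and 23 of HFD + L-NAME 1 and 2, and 5 and 0 of chow 1 and 2. That is 15.7% of neutrophil-like cells (exact binomial 95% interval 12.6 to 19.3%) in the NO2-OA library, 4.42% (2.38 to 7.44%) and 4.32% (2.76 to 6.42%) in HFD + L-NAME 1 and 2, 1.63% (0.531 to 3.76%) in chow 1, and 0 of 9 (up to 33.6%) in chow 2. Its cells were deeper, with a median of 10865 UMIs against 4906, and whether cell pairs that escaped doublet removal are part of it was not tested.

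Summed over the 5 libraries, the smaller cluster had 16500 CPM of Camp, against 12.2 in the larger one. Ltf stood at 6444 CPM in the smaller cluster and 11.9 in the larger, and Ngp at 19240 in the smaller and 70.2 in the larger. In UMIs, the smaller cluster held 22379 of Camp and the larger 95, the smaller 8741 of Ltf and the larger 93, and the smaller 26104 of Ngp and the larger 548. The other genes differed less between the clusters. Lcn2 had 9153 CPM in the smaller cluster and 1087 in the larger, and Wfdc21 had 5308 in the smaller and 1039 in the larger. Mmp8 stood at 2028 CPM in the smaller cluster and 369 in the larger, Mmp9 at 1382 in the smaller and 588 in the larger, and Retnlg at 14870 in the smaller and 6599 in the larger. Il1r2 went the other way, with 608 CPM in the smaller cluster and 3052 in the larger, as did Stfa2l1 with 103 and 643. The same contrast was present in genes outside the 10, named here after their values were seen. Chil3, a chitinase-like secreted protein, had 1640 CPM in the smaller cluster and 3.84 in the larger, Cebpe, a transcription factor needed for specific granules, 91.4 and 5.38, Cd177 781 and 31.1, and Csf3r, the G-CSF receptor, 229 and 1427. Primary granule genes stayed near 0 in both, with 0.737 and 0.640 CPM of Mpo and 0 and 0.128 of Elane. Top2a, from a list of 5 proliferation markers, had 0 and 1.41. All 5 markers summed to 25.5 CPM in neutrophil-like cells of the NO2-OA library. The sum was 17.9 and 33.1 in HFD + L-NAME 1 and 2, and 21.7 and 0 in chow 1 and 2. The other proliferation markers were not compared between the clusters here. Since the clusters were formed from these cells, these differences are descriptions without a test.

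**Figure D4:**
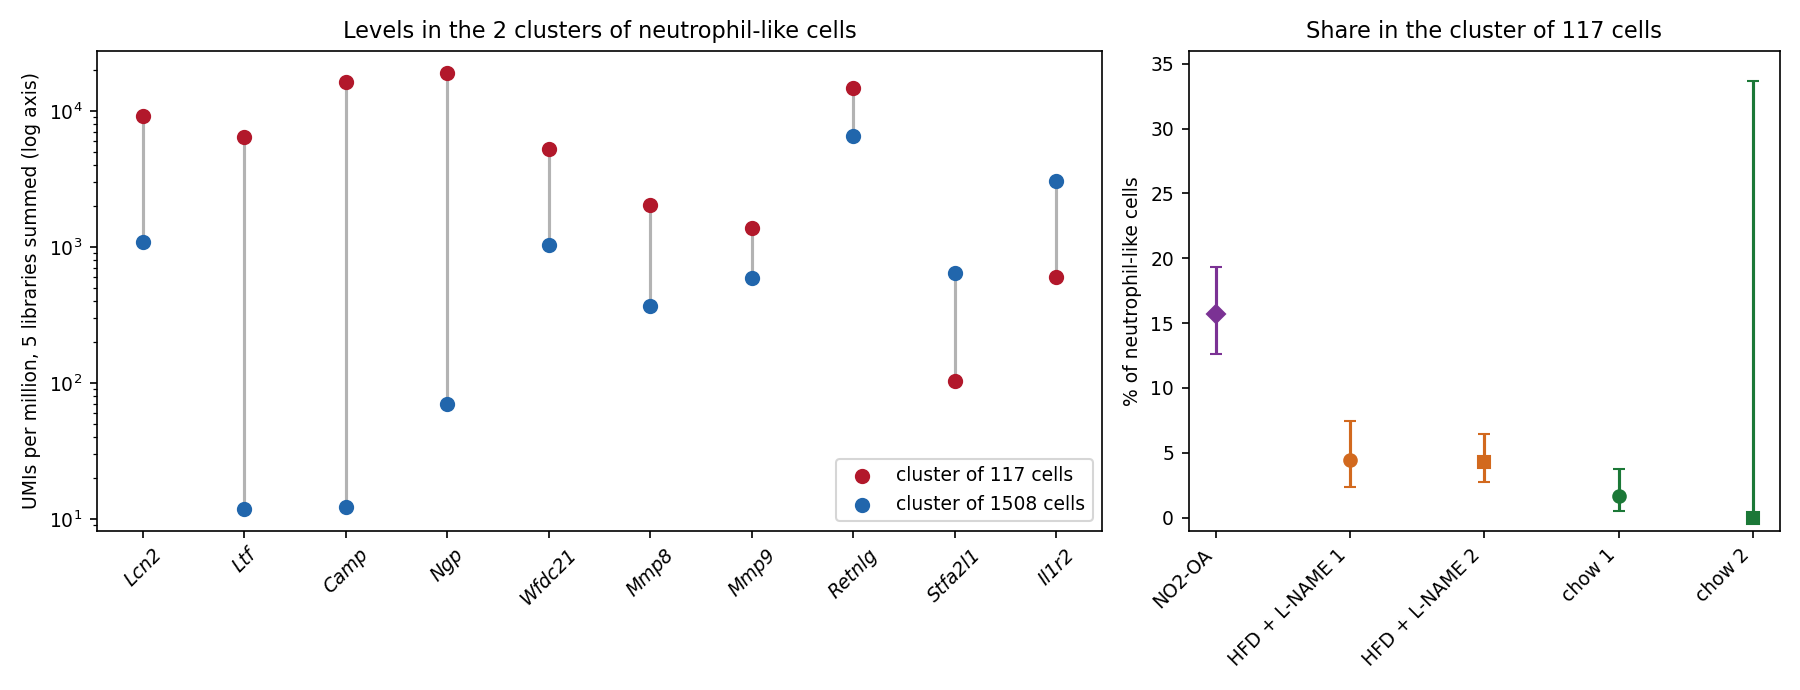
Left, level of each gene (CPM over 5 libraries, log axis) in the cluster of 117 cells and in the cluster of 1508 cells. Right, percent of each library's neutrophil-like cells in the cluster of 117 cells, with the exact binomial 95% interval. Ltf, Camp and Ngp are separated most, Il1r2 and Stfa2l1 lie the other way round, and the NO2-OA library has the highest share at 15.7%.

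Lcn2 and Wfdc21 kept the order of the groups within the larger cluster, without passing the test there. There Lcn2 had 1968 CPM in the NO2-OA library, 1651 and 687 in HFD + L-NAME 1 and 2, and 236 and 321 in chow 1 and 2. Wfdc21 had 1877 CPM in the NO2-OA library, 1374 and 694 in HFD + L-NAME 1 and 2, and 363 and 249.7 in chow 1 and 2. With the smaller cluster left out, the edgeR log2 fold changes were 2.43 ± 0.57 for Lcn2, 1.98 ± 0.55 for Wfdc21 and 2.06 ± 0.70 for Ngp, with adjusted p = 1 for each. Ltf then had 19.3 CPM in the NO2-OA library, 9.46 and 7.98 in HFD + L-NAME 1 and 2, and 13.6 and 17.8 in chow 1 and 2, and a log2 fold change of -0.53 ± 0.61 (edgeR adjusted p = 1). The order of the libraries in Ltf was therefore not kept outside the smaller cluster, and Camp had too few UMIs there to be tested.

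Other genes of the granules and of neutrophil maturation were taken from 5 lists. None of their genes passed edgeR in neutrophil-like cells, and they are described by the 3 genes with most UMIs in each list. Of 17 other specific, gelatinase and secretory granule genes, 13 were tested, all 13 had fold changes above 0 with a median of 1.16 on the log2 scale, and 6 had an unadjusted p under 0.05. Lyz2, the lysozyme gene, had 3518 CPM in the NO2-OA library, 2027 and 2879 in HFD + L-NAME 1 and 2, and 1128 and 945 in chow 1 and 2, a log2 fold change of 1.49 ± 0.47 (edgeR adjusted p = 1). The log2 fold changes of Slpi, a protease inhibitor, and Hp, haptoglobin, were 0.25 ± 0.43 and 1.16 ± 0.45 (edgeR, both adjusted p = 1). Chil3 had the smallest p of these lists (3.77 ± 0.57, edgeR adjusted p = 0.0938) and was singled out for it. Without chow 2, 15 of the 17 genes were tested, all above 0 with a median of 1.23, with Chil3 at 3.63 and Cd177 at 2.29.

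Of 10 genes of maturity and release from marrow, all 10 were tested and above 0, with a median of 0.51, and 1 had an unadjusted p under 0.05. Mxd1, a repressor expressed late in differentiation, had a log2 fold change of 0.69 ± 0.49, Csf3r of 0.10 ± 0.44 and Cxcr4, the receptor that holds neutrophils in the marrow, of 0.10 ± 0.47 (edgeR, all adjusted p = 1). Of 7 other stefin A genes, 3 were tested, all above 0, with a median of 1.14 and 1 unadjusted p under 0.05. Stfa1 had a log2 fold change of 2.04 ± 0.55 (edgeR adjusted p = 0.799), Cstdc5 of 1.14 ± 0.58 and Cstdc4 of 0.48 ± 0.47 (edgeR, both adjusted p = 1), with the same uncertainty about copies. Of 6 granulopoiesis factors, 5 were tested, 4 of them above 0 with a median of 0.32 and none with an unadjusted p under 0.05. Cebpb had a log2 fold change of 0.61 ± 0.46, Spi1 of 0.32 ± 0.44 and Cebpd of 0.21 ± 0.42 (edgeR, all adjusted p = 1). None of the 6 primary granule genes had enough UMIs for a test: Mpo, Prtn3 and Prss57 stood at no more than 2.72 CPM in any library other than chow 2, where 1 UMI of Mpo gave 17.8 CPM. Without chow 2, 7 of 10 maturity genes tested were above 0 with a median of 0.25, and Csf3r (-0.07) and Cxcr4 (-0.24) turned below 0. The medians were then 0.47 over 5 other stefin A genes and 0.26 over 6 granulopoiesis factors.

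Over all kept cells the 10 genes were higher in both HFD + L-NAME libraries than in both chow libraries, and neutrophil share and level per neutrophil both enter these sums. The share of all 19229 genes tested that had this order was not counted, and 49.7% of those genes had a fold change above 0. Lcn2 had 133.6 CPM in the NO2-OA library, 49.5 and 105.1 in HFD + L-NAME 1 and 2, and 5.30 and 0.549 in chow 1 and 2. Wfdc21 had 97.0 CPM in the NO2-OA library, 38.3 and 77.2 in HFD + L-NAME 1 and 2, and 7.47 and 5.64 in chow 1 and 2. Mmp8 had 49.8 CPM in the NO2-OA library, 18.1 and 26.4 in HFD + L-NAME 1 and 2, and 7.01 and 4.36 in chow 1 and 2. In these 3 genes the libraries of treated mice lay above both chow libraries.

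edgeR called none of 19229 genes over all kept cells (0%), although 561 genes, 7 of the 10 among them, had an unadjusted p under 0.05. The 10 log2 fold changes lay between 1.98 ± 0.60 for Il1r2 and 5.43 ± 1.97 for Camp, with a median of 3.09 against 0 over all genes. The smallest errors belonged to Mmp8 (2.05 ± 0.34) and Wfdc21 (3.22 ± 0.40), both with an edgeR adjusted p of 1. DESeq2 called 43 genes (0.224%), Mmp8 (adjusted p = 0.000873) and Wfdc21 (adjusted p = 3.23e-09) among them. Without the neutrophil-like cells the log2 fold changes were 0.93 ± 0.74 for Mmp8, 0.32 ± 0.76 for Wfdc21, 0.14 ± 0.27 for Il1r2 and 4.14 ± 1.46 for Lcn2 (edgeR, all adjusted p = 1).

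The remainder of Lcn2 outside neutrophil-like cells lay in classical monocyte-like cells of 2 libraries. Its level there was 42.6 CPM in the NO2-OA library, 82.6 and 0.642 in HFD + L-NAME 1 and 2, and 0.743 and 2.14 in chow 1 and 2. The cells with a UMI numbered 143 of 632 (22.6%) in the NO2-OA library, 96 of 354 (27.1%) and 1 of 96 (1.04%) in HFD + L-NAME 1 and 2, and 2 of 245 (0.816%) and 6 of 333 (1.80%) in chow 1 and 2. HFD + L-NAME 2 thus lay with the chow libraries and not with HFD + L-NAME 1, and Lcn2 did not pass edgeR's filter on low counts in this class. Wfdc21 in the same cells had 41.0 CPM in the NO2-OA library, 15.3 and 0.642 in HFD + L-NAME 1 and 2, and 0.743 and 0.475 in chow 1 and 2. Both genes were found together in 53 cells of the NO2-OA library and 18 of HFD + L-NAME 1, against 0 of HFD + L-NAME 2 and 0 and 1 of chow 1 and 2.

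For each 100 UMIs of S100a8, a calprotectin subunit and neutrophil marker, classical monocyte-like cells had 45.9 UMIs of Lcn2 in the NO2-OA library and 152.9 in HFD + L-NAME 1. The ratio there was 2.78 in HFD + L-NAME 2, and 4.255 and 15.8 in chow 1 and 2, from 1, 2 and 9 UMIs of Lcn2. Neutrophil-like cells had 6.50 in the NO2-OA library, 4.56 and 4.03 in HFD + L-NAME 1 and 2, and 1.765 and 1.44 in chow 1 and 2. Retnlg, more abundant than Lcn2 in neutrophil-like cells, had 29 UMIs in the classical monocyte-like cells of the NO2-OA library and 3 in those of HFD + L-NAME 1, where Lcn2 had 382 and 422. The part of neutrophil RNA in the Lcn2 of classical monocyte-like cells was not tested.

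Mmp8 was shared with classical monocyte-like cells in all libraries. It had 145.5 CPM there in the NO2-OA library, 110.8 and 75.2 in HFD + L-NAME 1 and 2, and 49.0 and 72.0 in chow 1 and 2, so HFD + L-NAME lay above chow by a narrow margin. The log2 fold change was 0.66 ± 0.30 (edgeR adjusted p = 1, unadjusted p = 0.0566), and edgeR called none of the 10337 genes tested in this class (0%), with 395 at an unadjusted p under 0.05 and 13 called by DESeq2. Leaving out 1 library gave 172 genes without chow 1, 4 without chow 2, 16 without HFD + L-NAME 1 and 86 without HFD + L-NAME 2, with none of the 10 among them. These cells held 31.3% of all Mmp8 UMIs in the NO2-OA library, 42.2% and 7.23% in HFD + L-NAME 1 and 2, and 20.1% and 93.2% in chow 1 and 2. Il1r2 was present in classical monocyte-like cells at 138.5 CPM in the NO2-OA library, 132.8 and 138.1 in HFD + L-NAME 1 and 2, and 120.3 and 97.4 in chow 1 and 2, a log2 fold change of 0.34 ± 0.24 (edgeR adjusted p = 1). Dendritic-like cells had more of it in 4 of the 5 libraries, with 334 CPM in the NO2-OA library from 8 cells, 313 and 132.5 in HFD + L-NAME 1 and 2, and 353 and 198 in chow 1 and 2 (log2 fold change -0.29 ± 0.52, edgeR adjusted p = 1).

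**Figure D5:**
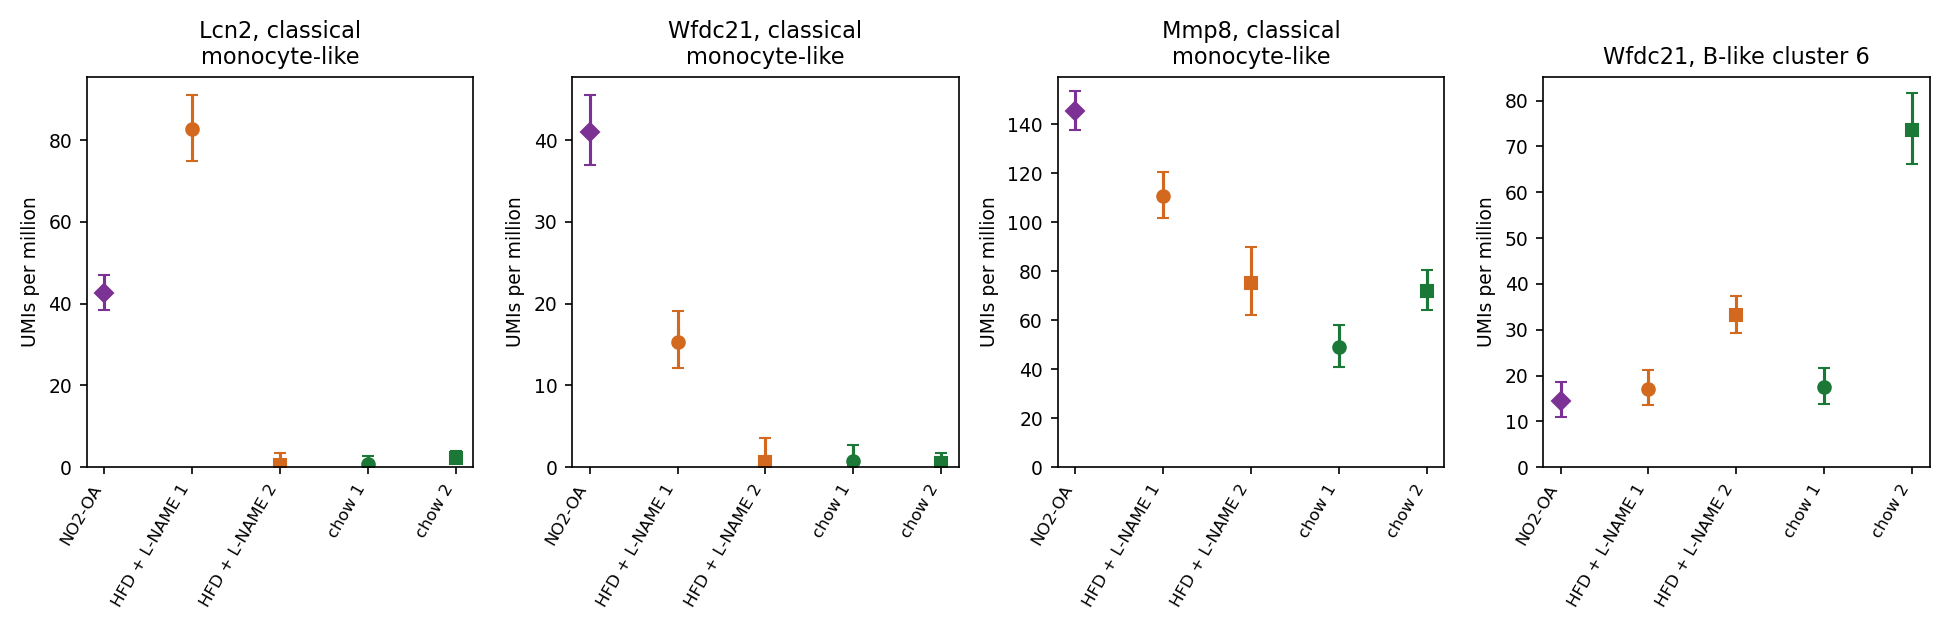
Level (CPM) by library of Lcn2, Wfdc21 and Mmp8 in classical monocyte-like cells and of Wfdc21 in a B-like cluster, with exact Poisson 95% intervals. Lcn2 and Wfdc21 in classical monocyte-like cells are high in the NO2-OA library and HFD + L-NAME 1 alone, and Wfdc21 in the B-like cluster is highest in chow 2 at 73.7 CPM.

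B-like cells were a second source of Wfdc21. Most of it lay in 1 of their clusters, led by Agbl1, Akap12, Iglc1 and Vpreb3, which held 67.5% of the B-like UMIs of the gene in the NO2-OA library, 77.3% and 96.1% in HFD + L-NAME 1 and 2, and 81.4% and 91.9% in chow 1 and 2. Its level in that cluster was 14.4 CPM in the NO2-OA library, 17.1 and 33.2 in HFD + L-NAME 1 and 2, and 17.4 and 73.7 in chow 1 and 2, so the groups overlapped. Over all B-like cells the log2 fold change of Wfdc21 was -0.16 ± 0.77 (edgeR adjusted p = 1). In chow 2, 3.33% of the Wfdc21 UMIs lay in its neutrophil-like cells, against 83.8 to 94.1% in the other libraries. Il1r2 was also present in B-like cells, at 25.1 CPM in the NO2-OA library. It had 18.2 and 10.1 there in HFD + L-NAME 1 and 2, and 18.8 and 16.45 in chow 1 and 2. In chow 2, B-like cells held 558 of its 1756 UMIs, against 163 in neutrophil-like cells.

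T-like cells were taken as a class that should make little of these transcripts. The 10 genes summed to 0.107 per 10000 UMIs there in the NO2-OA library, 0.0379 and 0.106 in HFD + L-NAME 1 and 2, and 0.0303 and 0.0116 in chow 1 and 2. They were lowest in the library with fewest neutrophil-like cells. Il1r2 gave 45 of the 290 UMIs in this sum in the NO2-OA library. It gave 22 of 60 and 33 of 63 in HFD + L-NAME 1 and 2, and 39 of 99 and 7 of 21 in chow 1 and 2. Whether T-like cells make Il1r2 themselves was not tested. Retnlg and Il1r2 were the only members tested in this class, with log2 fold changes of 2.17 ± 0.70 and 2.01 ± 0.75 (edgeR, both adjusted p = 1). No gene was called in T-like, B-like, non-classical monocyte-like or dendritic-like cells (0% in each), with 194 to 317 genes at an unadjusted p under 0.05 and 3 to 13 called by DESeq2. Leaving out 1 library gave 1 to 39 genes in non-classical monocyte-like cells, 0 to 14 in T-like, 0 to 10 in B-like and 0 to 2 in dendritic-like cells, with none of the 10 among them.

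Over 47 sums of a class in a library, the genes whose log2(CPM + 1) was most like the mean of the 10 were Mirt2 (Pearson r 0.983), Il36g (0.976), Chil1 (0.974), 4930534D22Rik (0.972) and Ly6g (0.971). Il36g and Ly6g are among the 12 markers that named the class, and the sums share libraries. Ly6g, the surface antigen used to identify mouse neutrophils, had 248 CPM in neutrophil-like cells of the NO2-OA library, 131 and 95.0 in HFD + L-NAME 1 and 2, and 42.6 and 17.8 in chow 1 and 2, a log2 fold change of 1.68 ± 0.45 (edgeR adjusted p = 0.799), and of 1.52 without chow 2.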

How the data were processed

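Counts of unique molecular identifiers (UMIs) per gene and cell barcode were used as the authors deposited them, as 1 matrix per library without normalization, and came from Cell Ranger 7.1.0 per the file headers. Per the submitters' processing notes, bcl2fastq was used and the genome was mm39; the annotation release is not given in the sources used here. Barcodes with at least 200 genes and under 10% mitochondrial UMIs were kept, and the highest scrublet scores (scanpy 1.11.5) were removed as doublets, 6.79 to 14.4% of a library. Leiden clusters (leidenalg 0.10.2, resolution 1, 40 components of 2000 variable genes without the 10 members, 20 neighbours) were named by their markers, with thresholds set after the data were seen. A name needed a mean marker score of at least 1, at least 3 markers detected in at least 10% of cells, and no other class at that score.

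UMIs were summed per library and class and scaled to 1000000 (CPM), with exact Poisson or binomial 95% intervals. edgeR 4.0.16 (in R 4.3.3, with the filterByExpr filter, TMM scaling and a robust fit of the quasi-likelihood model) compared the 4 chow and HFD + L-NAME libraries with group as the only term, in classes with at least 50 cells in each of them and in neutrophil-like cells, with Benjamini-Hochberg adjustment at 0.05. The SE is the log2 fold change over the square root of F. The fit was run on simulated counts with 200 known changes of log2 size 2, and recovered 197 of them for neutrophil-like cells. Their dispersion was set at 0.05 and not taken from these libraries, so this does not give the power of the test here. The members, lists and tests were chosen with earlier results of these data known. All members were named, then up to 4 genes per list that passed edgeR or else the 3 with most UMIs, and the 5 genes most like the members; other genes were named after their values were seen. Alternatives were DESeq2 1.42.0, its size factors in edgeR, no low-count filter, all 5 libraries, doublets kept, a 5% mitochondrial limit, other clusterings, thinning to 500 UMIs, a replicate block and each library left out.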

Additional observations from a re-analysis of the deposited data

How the results depend on the processing

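Of the values under alternatives, 393 kept their direction and their side of the threshold or moved by less than the spread, 62 moved, 30 passed a threshold that the reported fit did not, and 13 changed sign. The reported count of 4 genes called in neutrophil-like cells was 7 with DESeq2, 16 with the replicate block, 20 with no filter on low counts, 20 with all 5 libraries in the fit and 138 with predicted doublets kept. Leaving out a library gave 3 to 225 genes, with 225 without chow 1 and 16 without chow 2, where the lone chow library is assumed to vary like the other group. Over all kept cells, where none was called, DESeq2 called 43 genes and leaving out a library gave 0 to 3. Lcn2 passed in 7 of 15 alternatives in neutrophil-like cells (log2 fold change 2.43 to 3.20, adjusted p from 1.07e-12 to 1), Ltf, Camp and Ngp in 5 each, Wfdc21 in 3, Retnlg in 2 and Mmp9 in 1, while Mmp8, Stfa2l1 and Il1r2 passed in none, and Camp could not be fitted in 1. In neutrophil-like cells Stfa2l1 ran from -0.23 to 0.63 over left-out libraries, and Ltf was -0.53 without the smaller cluster, an alternative added after the data were seen. In other classes, left-out libraries gave -4.39 to 2.11 for Retnlg in non-classical monocyte-like cells (reported -1.20 ± 1.40) and -1.11 to 0.23 for Il1r2 in dendritic-like cells. In B-like cells they gave -2.33 to 2.81 for Mmp9 (reported -0.35 ± 1.27), -0.43 to 0.48 for Camp, -0.03 to 3.17 for Retnlg, -1.24 to 1.17 for Wfdc21 and -0.81 to 0.08 for Il1r2.

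Replicate numbers are shared between the groups, and the deviations of same-numbered libraries had a Pearson r of 0.51 over 8321 genes. Macrophage-like cells were named only in libraries numbered 2, with 322 in HFD + L-NAME 2 and 103 in chow 2. With 2 pairs and no label saying what a number stands for, the reported test has no block. The log2 fold changes under the block are 2.76 for Lcn2 (edgeR adjusted p = 0.00432), 3.09 for Ltf (0.00146), 4.06 for Camp (1.92e-05), 3.93 for Ngp (6.98e-05) and 2.38 for Wfdc21 (0.0349). The names of the deposited files differ between the replicate numbers in the same way. The neutrophil-like share with predicted doublets kept was 4.41% in the NO2-OA library and 2.50% in chow 1. With a 5% mitochondrial limit it was 4.66% in the NO2-OA library, 3.49% and 8.26% in HFD + L-NAME 1 and 2, and 2.98% in chow 1. With platelet-like, erythroid-like and unnamed cells out of the denominator it was 4.32% in the NO2-OA library, 3.12% and 10.7% in HFD + L-NAME 1 and 2, and 2.34% in chow 1. With doublets kept, the 10 genes had 0.899 per 10000 UMIs outside neutrophil-like cells in the NO2-OA library and 0.377 in HFD + L-NAME 2. The share of Lcn2, Ltf, Camp and Ngp among the UMIs of the 10 genes was then 51.7% in the NO2-OA library, 25.0% and 35.3% in HFD + L-NAME 1 and 2, and 8.78% in chow 1. Thinned to 500 UMIs per cell it was 33.2% in the NO2-OA library, 19.7% and 20.6% in HFD + L-NAME 1 and 2, and 7.33% and 11.1% in chow 1 and 2, the last from 3 of 27 UMIs. The causes of these shifts were not tested. The 9 neutrophil-like cells of chow 2 limit every comparison in that class.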
